A study of Mus musculus with 31 samples.

Results

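The 10 genes described here encode the liver's machinery for making glucose and for storing it as glycogen. They are G6pc, Pck1, Fbp1 and Pcx of gluconeogenesis, Gys2, Ugp2 and Gbe1 of glycogen synthesis, Pygl of glycogen breakdown, and Ppp1r3b and Ppp1r3c, which bring a phosphatase to glycogen. They were taken by gene symbol from a deposited table of 43629 genes. All 10 were found, and all 10 were among the 17057 genes that passed the filter on low counts.

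RNA from 31 livers of C57Bl/6J pups was sequenced at postnatal day 14. Every pup was null for Dio1 and Dio2, the deiodinases that turn the prohormone thyroxine (T4) into triiodothyronine (T3), the ligand with high affinity for the nuclear thyroid hormone receptors. The control group (n = 5) was Dio1KO/Dio2KO/Pax8Het and received vehicle. The other 4 groups were Dio1KO/Dio2KO/Pax8KO, and so lacked Pax8, a transcription factor that the thyroid needs to form. Of these, 5 received vehicle, 8 T4, 6 T3 and 7 T3 and T4 together (T3+T4), by injection every other day from postnatal day 2. No group had intact deiodinases, so no comparison here is with a wild-type liver. Each library came from a separately numbered animal, and litters are not given in the labels.

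The liver releases glucose between meals from 2 sources. Gluconeogenesis builds it from lactate, alanine and glycerol: pyruvate carboxylase makes oxaloacetate, phosphoenolpyruvate carboxykinase carries it on, and fructose-1,6-bisphosphatase and glucose-6-phosphatase perform the last irreversible steps. Glycogen is built by glycogen synthase from UDP-glucose with branches added by the branching enzyme, and is cut back to glucose-1-phosphate by glycogen phosphorylase. Suckling pups live on milk that is rich in fat and comparatively poor in carbohydrate, so their livers depend on gluconeogenesis. Thyroid hormone is known as a regulator of hepatic gluconeogenesis in adult animals.

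RefSeq promoter windows, each running from 250 bases before to 50 bases after an annotated start, were found for 8 of the 10 genes, as 10 windows. The windows of G6pc and Pck1 are shown because the levels of these genes rose and fell together from liver to liver, and both windows of Pcx because Pcx differed in every comparison of T3+T4 with another Pax8KO group except T3. All are GRCm38.p6 and written 5′ to 3′ on the plus strand of the chromosome, which is the coding strand of each gene, with motif matches in capitals.
G6pc, chr11:101367466-101367765: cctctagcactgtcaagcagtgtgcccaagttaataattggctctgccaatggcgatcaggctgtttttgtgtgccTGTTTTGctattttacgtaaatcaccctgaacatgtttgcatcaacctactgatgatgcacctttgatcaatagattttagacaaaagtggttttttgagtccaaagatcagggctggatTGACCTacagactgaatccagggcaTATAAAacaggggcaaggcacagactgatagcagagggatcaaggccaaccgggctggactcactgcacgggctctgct
Pck1, chr2:173152823-173153122: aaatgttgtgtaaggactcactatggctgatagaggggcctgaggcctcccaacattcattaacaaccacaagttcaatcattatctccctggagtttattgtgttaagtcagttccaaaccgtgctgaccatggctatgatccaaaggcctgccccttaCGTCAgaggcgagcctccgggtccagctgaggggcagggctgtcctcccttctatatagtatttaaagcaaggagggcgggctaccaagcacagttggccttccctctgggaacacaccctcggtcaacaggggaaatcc
Pcx upstream start, chr19:4510222-4510521: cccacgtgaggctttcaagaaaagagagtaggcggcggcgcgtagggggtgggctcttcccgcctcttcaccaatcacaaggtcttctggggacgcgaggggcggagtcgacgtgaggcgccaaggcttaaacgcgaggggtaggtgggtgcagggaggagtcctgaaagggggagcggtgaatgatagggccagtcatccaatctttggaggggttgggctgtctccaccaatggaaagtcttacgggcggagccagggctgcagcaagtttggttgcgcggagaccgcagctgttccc
Pcx downstream start, chr19:4594069-4594368: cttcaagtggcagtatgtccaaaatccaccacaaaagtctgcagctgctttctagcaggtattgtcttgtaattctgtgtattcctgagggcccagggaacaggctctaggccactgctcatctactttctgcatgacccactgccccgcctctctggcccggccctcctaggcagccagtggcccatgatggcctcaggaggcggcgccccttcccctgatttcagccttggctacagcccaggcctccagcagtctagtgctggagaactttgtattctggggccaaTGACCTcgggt
Short motifs were searched for by their letters, and no match overlaps another in the windows shown. AGGTCA is the half-site that thyroid hormone receptors and other nuclear receptors bind, searched on both strands. It was in 3 of the 10 windows (G6pc, Pygl and the downstream one of Pcx) and in 16.3% of all 32851 windows in the RefSeq table. All 3 matches were on the strand opposite to the gene, and the one in G6pc began 54 bases before the start.

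TGACG, a half-site of the cyclic AMP response element that glucagon signalling reaches, was searched on both strands and was in 2 of the 10 windows (Pck1 and Pygl) against 20.8% of all windows. In Pck1 it lay on the opposite strand, began 90 bases before the start, and was the only match in that window.

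TGTTTTG, the core of an insulin response sequence, was searched on both strands and was in the G6pc window, beginning 174 bases before the start, and in no other of the 10, against 6.28% of all windows.

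TATAAA, searched on the coding strand, began 29 bases before the start of G6pc and was in no other of the 10 windows, against 8.32% of all windows.

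TGTTTAC, a core bound by forkhead factors, was searched on both strands and was in none of the 10, against 3.65% of all windows. These are matches of letters and not mapped binding sites.

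Library totals ran from 4383769 to 7158919 counts, with medians of 5340700 in control, 5322022 in vehicle, 5298959 after T4, 6145941.5 after T3 and 6424333 after T3+T4. The labelled tissue was borne out by 8 hepatocyte markers, whose mean level ran from 563 to 887 CPM over the libraries (CPM are counts per 1000000 of the effective library size). The 4 kidney cortex markers averaged at most 0.296 CPM in any library, the kidney being another organ that makes G6pc, Pck1 and Fbp1. In 12 libraries, markers of skeletal muscle or pancreatic acinar cells averaged at least 5 CPM, with muscle up to 49.9 CPM in a T3 library and acinar markers up to 25.5 CPM in a vehicle library. Sex was labelled for 20 animals, and 4 of these labels differed from the sex genes (vehicle animal 67, T4 animal 54, T3 animal 68 and T3+T4 animal 79). By the sex genes the groups were unevenly mixed. Most control and T3 livers were female, and most vehicle, T4 and T3+T4 livers were male. A fall in a transcript in whole liver cannot be told apart from fewer cells of the type that makes it.

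Over all genes, the highest mean was 2.41 counts per exonic base and the 10th highest 1.75, and 108 averaged over 1 per base. An upper limit near 2 counts per exonic base was assumed for this table. Of the 10 genes, G6pc, Pck1 and Fbp1 lay nearest that level, with medians over the libraries of 1.15, 1.18 and 0.942 counts per base. The other 7 had medians from 0.0878 (Gbe1) to 0.601 (Ugp2). A count near such a level would move less than the transcript does, so differences of these 3 genes are given with that limit. Where flattening begins was not tested, and the other 7 may be limited as well.

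**Figure D1:**
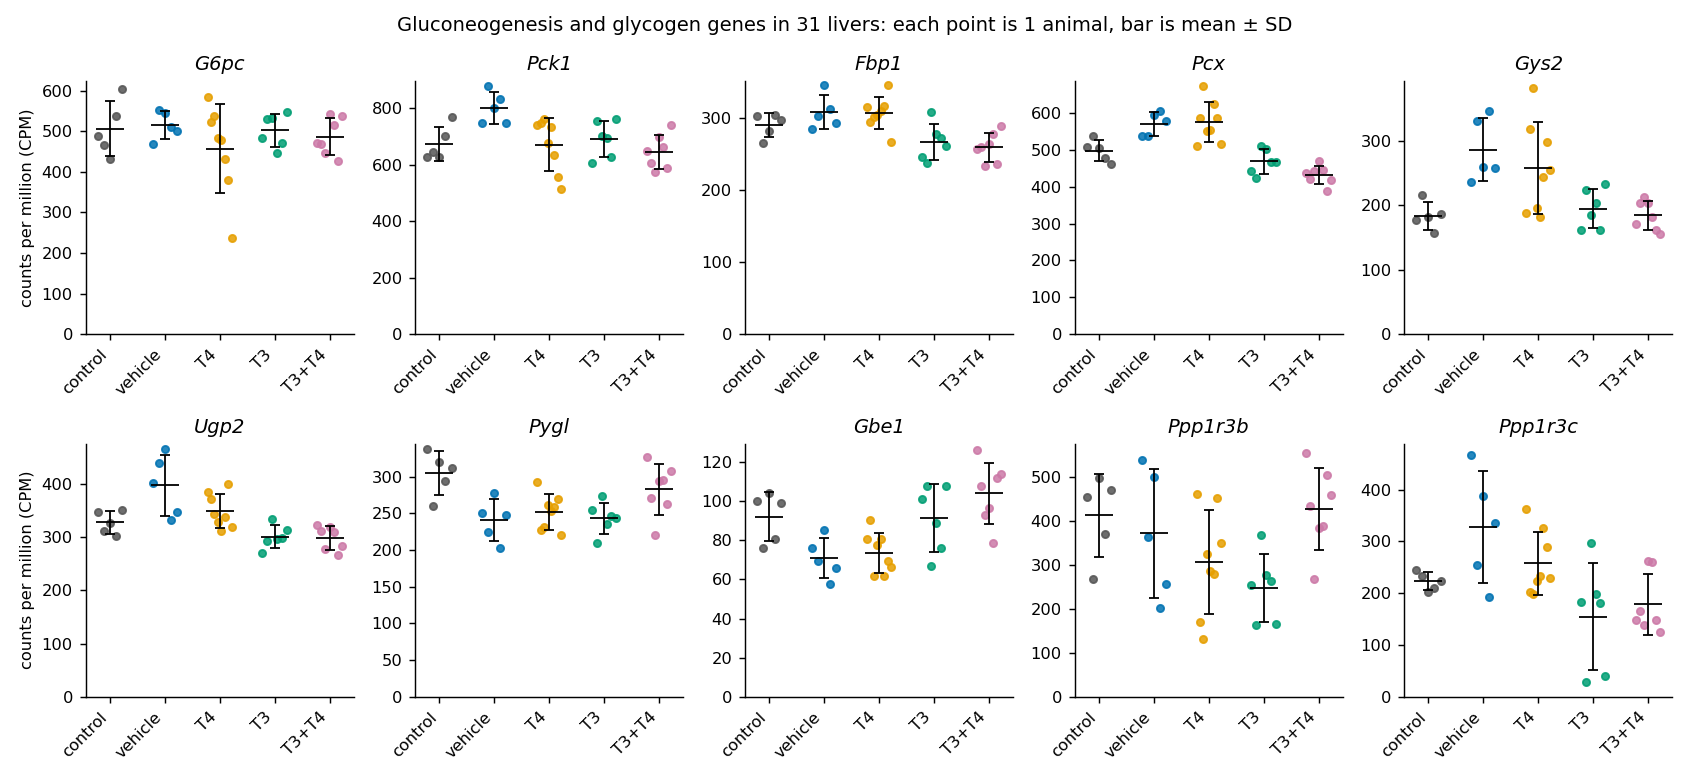
CPM (vertical axis, from 0) of each of the 10 genes in the 5 groups, with 5 control, 5 vehicle, 8 T4, 6 T3 and 7 T3+T4 livers; points are animals, the long tick is the group mean and the bar its SD. Gys2 in the 5 vehicle livers (236 to 346 CPM) lies above all 5 control livers (156 to 216 CPM), and Ppp1r3c has 2 T3 livers far below the others.

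In Pax8KO livers without hormone, 2 of the 3 genes of glycogen synthesis were higher and glycogen phosphorylase was lower. The remaining synthesis gene, Gbe1, differed by −0.38 ± 0.14 (log2) and did not pass (adjusted p = 0.0807). Only the Gys2 call held with each library left out in turn. In vehicle livers against control livers, 3 of the 10 genes passed the test, with Gys2 and Ugp2 higher and Pygl lower, where 9.63% of all 17057 genes passed. The median log2 difference of the 10 genes was 0.14, against 0.01 for all genes tested. The test throughout was edgeR's quasi-likelihood test over all 31 libraries with Benjamini-Hochberg adjustment over 17057 genes at 0.05, and errors of log2 fold changes are SE.

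Given per exonic kilobase, so that genes of different length can be set side by side, the mean control levels were 210 CPM per kb for G6pc, 197 for Pck1, 170 for Fbp1, 107 for Ugp2 and 105 for Pcx. They were 81.9 for Ppp1r3c, 69.0 for Gys2, 66.3 for Ppp1r3b, 44.2 for Pygl and 17.2 for Gbe1. The glucose-producing enzymes thus stood above the glycogen genes in the control liver, apart from Ugp2, which was level with Pcx. However, the leading 3 are also those nearest the assumed upper limit of the counts. The length used is that of all annotated exons of a gene together, which can exceed that of the transcript present. The order therefore also depends on the annotation.

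Gluconeogenesis begins with pyruvate carboxylase in the mitochondrion. Pcx (ENSMUSG00000024892, chr19:4510472-4621752, plus strand) encodes it. Its level was 507, 538, 504, 478 and 463 CPM in the 5 control livers and 580, 537, 538, 594 and 605 CPM in the 5 vehicle livers. The lowest vehicle liver was just under the highest control liver, and the difference of 0.20 ± 0.07 on the log2 scale did not pass (adjusted p = 0.0599). After T4 the lowest, median and highest values were 512, 570 and 673 CPM, which overlapped the vehicle livers throughout. After T3 they were 423, 467 and 510 CPM and after T3+T4 388, 438 and 469 CPM. Every T3 and every T3+T4 liver was below every vehicle liver. Pcx fell by 0.28 ± 0.06 (log2) after T3 (adjusted p = 0.00799) and by 0.40 ± 0.06 after T3+T4 (adjusted p = 6.24e-05).

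Pcx also differed between T4 and T3. T4 livers were 0.30 ± 0.06 (log2) above T3 livers with no overlap between the groups (adjusted p = 0.012), the only 1 of the 10 genes to pass in that comparison, where 0.551% of all genes passed. T3+T4 livers were 0.41 ± 0.06 below T4 livers, again with no overlap (adjusted p = 2.69e-05). The calls after T3+T4, against vehicle and against T4, held under every alternative and with every library left out in turn. The call between T4 and T3 held with each library left out in turn but was lost under 7 of 15 alternatives, among them a sex covariate, the compared groups alone and the removal of T3 animals 61 and 68 (adjusted p up to 0.274).

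Pck1 (ENSMUSG00000027513, chr2:173153048-173159273, plus strand) encodes the cytosolic phosphoenolpyruvate carboxykinase. It measured 627, 646, 628, 701 and 769 CPM in control and 747, 750, 879, 801 and 833 CPM in vehicle livers. The vehicle livers were higher apart from 1 control liver that overlapped them, a difference of 0.25 ± 0.10 (log2) that did not pass (adjusted p = 0.0937). The lowest, median and highest values were 513, 707 and 762 CPM after T4, 605, 699 and 763 CPM after T3 and 575, 649 and 743 CPM after T3+T4. All 7 T3+T4 livers were below all 5 vehicle livers. Pck1 fell by 0.31 ± 0.09 (log2) after T3+T4 (adjusted p = 0.0157), while −0.26 ± 0.09 after T4 (adjusted p = 0.176) and −0.21 ± 0.09 after T3 (adjusted p = 0.16) did not pass. Without vehicle animal 38 the T3+T4 difference no longer passed (adjusted p = 0.0564), and with log2 library total as a covariate it was −0.20 (adjusted p = 0.233). Nor did it pass when counts were corrected for a ceiling of 2 counts per exonic base. The deposited counts overlapped, at 3773 to 4525 in vehicle and 3959 to 4279 after T3+T4, with the T3+T4 libraries being larger in the median.

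Fbp1 (ENSMUSG00000069805, chr13:62864753-62888282, minus strand), fructose-1,6-bisphosphatase, varied little. Its group means ran from 259 CPM (T3+T4) to 307 CPM (vehicle), and no group had a CV above 9.44%. Fbp1 fell by 0.25 ± 0.07 (log2) after T3+T4 against vehicle (adjusted p = 0.0097) and by 0.24 ± 0.06 against T4 (adjusted p = 0.00965). The deposited counts themselves were not lower, at 1496 to 1692 in vehicle and 1553 to 1764 after T3+T4, with the T3+T4 libraries being larger. When log2 library total was added to the model, the difference from vehicle was −0.06 (adjusted p = 0.501), and the fall against T4 was lost as well.

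G6pc (ENSMUSG00000078650, chr11:101367561-101377903, plus strand) encodes the catalytic subunit of glucose-6-phosphatase, the last step of both pathways. It measured 489, 467, 433, 538 and 606 CPM in control and 501, 470, 554, 545 and 511 CPM in vehicle livers. After T4 the lowest, median and highest values were 236, 482 and 585 CPM, after T3 447, 508 and 547 CPM and after T3+T4 427, 472 and 543 CPM. The groups overlapped one another, and G6pc passed in none of the 11 comparisons. The interval of vehicle against control was −0.26 to 0.32 (log2) and that of T3+T4 against vehicle −0.35 to 0.18. The widest group was T4, with a CV of 23.9% against 6.60% in vehicle, and its 2 lowest livers, animals 70 (381 CPM) and 71 (236 CPM), also had the lowest Pck1 of all 31 livers (557 and 513 CPM).

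**Figure D2:**
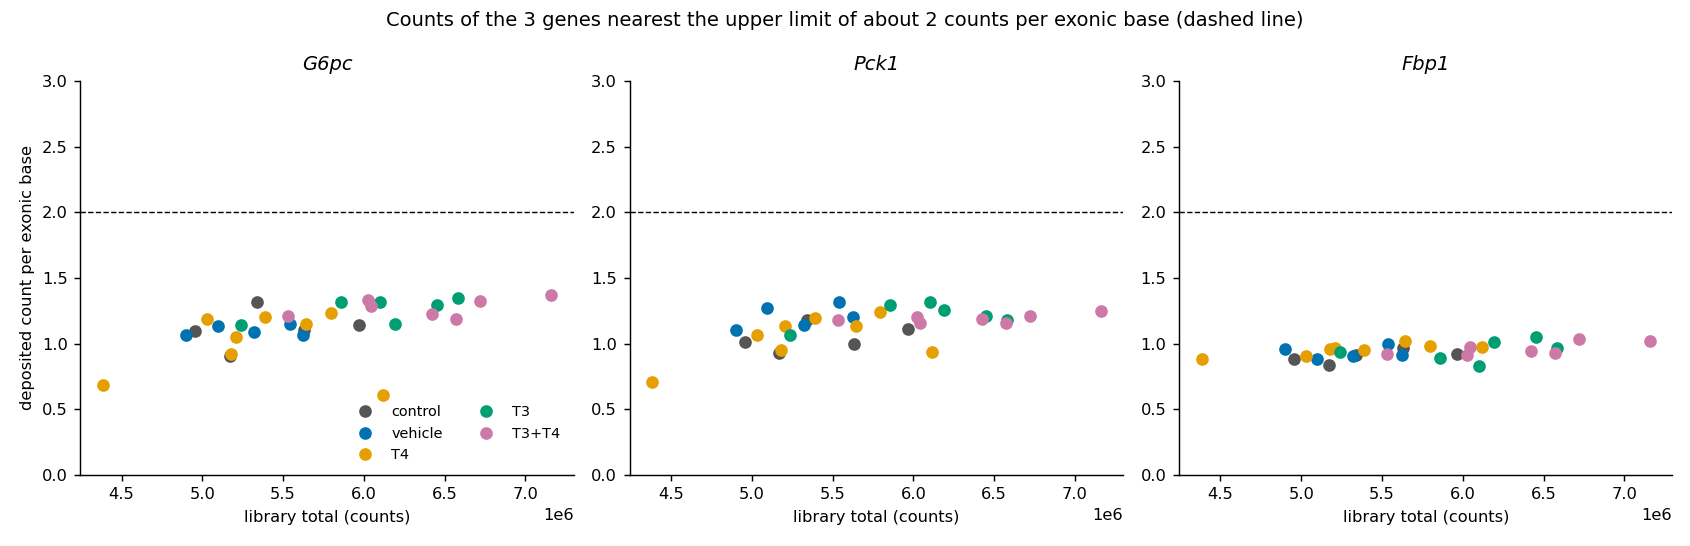
Deposited count per exonic base (vertical axis) against the library total in counts (horizontal axis) for G6pc, Pck1 and Fbp1. Each point is 1 animal, coloured by group. The dashed line marks 2 counts per base, an upper limit assumed for this table. Fbp1 stays between 0.833 and 1.05 counts per base in all 31 libraries, whereas G6pc and Pck1 reach 1.37 and 1.32, with 2 T4 animals lower.

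On the glycogen side, Ugp2 (ENSMUSG00000001891, chr11:21321138-21371201, minus strand) encodes UDP-glucose pyrophosphorylase, which makes the activated glucose for glycogen. It measured 348, 312, 326, 302 and 351 CPM in control and 348, 402, 439, 466 and 333 CPM in vehicle livers. In 3 vehicle livers it exceeded every control liver, and the other 2 lay within the control range. Ugp2 rose by 0.28 ± 0.08 (log2) in the Pax8KO livers (adjusted p = 0.0332). That call was lost on leaving out any 1 of 6 libraries (control 47, 49 or 50, vehicle 37, 38 or 55), with adjusted p up to 0.103. It held under 8 of 13 alternatives, and the sex covariate was among those that ended it (adjusted p = 0.0617). After T3 the lowest, median and highest values were 271, 297 and 335 CPM and after T3+T4 267, 310 and 324 CPM, and all 7 T3+T4 livers were below the vehicle livers. Ugp2 fell by 0.40 ± 0.08 after T3 (adjusted p = 0.00272) and by 0.41 ± 0.08 after T3+T4 (adjusted p = 0.000531). After T4 it measured 312, 340 and 400 CPM (lowest, median and highest), −0.18 ± 0.07 from vehicle (adjusted p = 0.281).

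Gys2 (ENSMUSG00000030244, chr6:142422613-142473109, minus strand) encodes the liver form of glycogen synthase. It measured 177, 216, 181, 156 and 186 CPM in the control livers. In the vehicle livers it measured 257, 236, 330, 259 and 346 CPM, each above every control liver. Gys2 rose by 0.64 ± 0.16 (log2), or 1.56-fold (adjusted p = 0.0124), and this call held with each library left out in turn. It did not pass with animals 54 to 85 only, a setting that keeps 1 control, although the difference there was no smaller (0.68, adjusted p = 0.538).

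Gys2 fell again with T3. The lowest, median and highest values were 162, 194 and 233 CPM after T3 and 155, 181 and 212 CPM after T3+T4, all below the lowest vehicle liver. The fall was 0.55 ± 0.15 (log2) after T3 (adjusted p = 0.0282) and 0.63 ± 0.15 after T3+T4 (adjusted p = 0.00418). The T3 call did not survive the removal of vehicle animal 38 or 67 or of T3 animal 60 or 65. Adjusted p was then at most 0.0768. It held under 7 of 14 alternatives. Among those that ended it were the covariates for sex and for library total, and removal of all 4 animals with a differing sex label. The T3+T4 call held with each library left out. After T4 the 8 livers spread from 182 to 381 CPM around a median of 250 CPM, a CV of 27.5%. They covered the whole vehicle range and the upper part of the control range, with 3 of the 5 control livers below every T4 liver.

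Gbe1 (ENSMUSG00000022707, chr16:70313949-70569716, plus strand), the branching enzyme, rose after T3+T4 where Gys2 and Ugp2 fell. It measured 100, 76.2, 104, 80.9 and 99.1 CPM in control and 65.8, 76.2, 69.5, 85.3 and 57.8 CPM in vehicle livers, −0.38 ± 0.14 (log2) with overlap (adjusted p = 0.0807). Its lowest, median and highest values were 61.9, 73.5 and 90.4 CPM after T4, 66.9, 94.8 and 108 CPM after T3 and 78.4, 108 and 126 CPM after T3+T4. Of the 7 T3+T4 livers, 6 were above every vehicle liver. Gbe1 rose by 0.55 ± 0.13 after T3+T4 against vehicle (adjusted p = 0.00394) and by 0.50 ± 0.11 against T4 (adjusted p = 0.00594). Both calls held with each library left out in turn. The call against vehicle held under 13 of 14 alternatives and was lost with animals 54 to 85 only. The call against T4 held under 13 of 15. It was lost with the covariate for library total and without the libraries with muscle or acinar markers. The T3 difference of 0.37 ± 0.13 did not pass (adjusted p = 0.0917), although it did without T3 animal 62 (adjusted p = 0.0271).

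Pygl (ENSMUSG00000021069, chr12:70190811-70231488, minus strand) encodes liver glycogen phosphorylase. It measured 338, 260, 320, 294 and 312 CPM in control and 247, 250, 224, 278 and 203 CPM in vehicle livers, with 1 control liver inside the vehicle range. Pygl fell by 0.34 ± 0.10 (log2) in the Pax8KO livers (adjusted p = 0.0217). Removal of control animal 42, control animal 49, vehicle animal 38 or vehicle animal 67 ended the call, with an adjusted p of at most 0.0743, as did removal of all 4 animals with a differing sex label. None of the hormone treatments moved Pygl past the test against vehicle. The difference was 0.07 after T4, 0.02 after T3 and 0.23 ± 0.09 after T3+T4 (adjusted p = 0.0707). The last passed without vehicle animal 55 or T3+T4 animal 78, with scaling by library total alone, without the filter, and under the covariate for library total (0.42).

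The change in the balance of synthase and phosphorylase can be read within each library, with no scaling between libraries. The log2 ratio of Gys2 to Pygl in counts per exonic base ran from 0.44 to 1.11 in the control livers (median 0.55) and from 1.27 to 2.15 in the vehicle livers (median 1.44), with no overlap. On the linear scale the means correspond to 1.56 and 3.07 counts of Gys2 per count of Pygl at equal length. The median log2 ratio was 1.40 after T4, 0.99 after T3 and 0.68 after T3+T4. The T3+T4 livers ran from 0.39 to 1.32, which covers the whole control range, and the T4 livers from 0.73 to 2.10. This ratio was chosen after the values of both genes were seen, and no test was made of it.

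**Figure D3:**
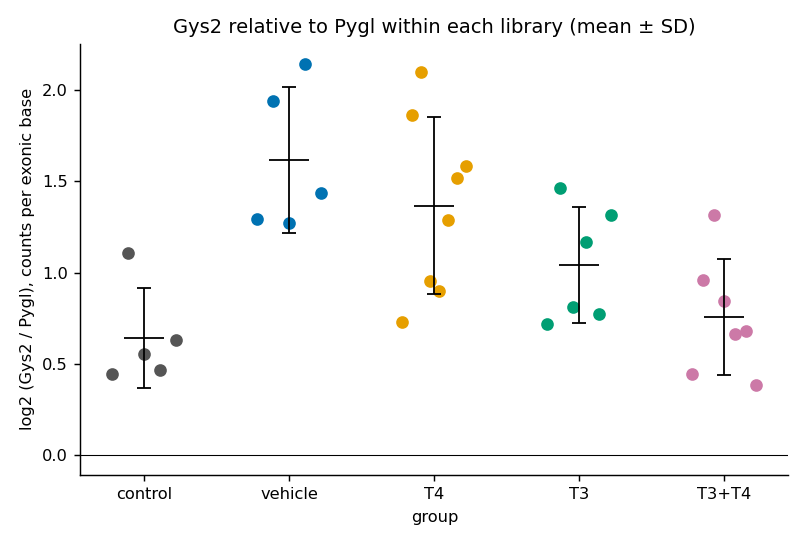
Log2 ratio of Gys2 to Pygl counts per exonic base (vertical axis) in each library by group; points are animals, the tick is the mean and the bar the SD. The 5 vehicle livers (1.27 to 2.15) lie above the 5 control livers (0.44 to 1.11), and the T3+T4 livers (0.39 to 1.32) reach back over the control range.

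Ppp1r3b and Ppp1r3c encode subunits that hold protein phosphatase 1 on the glycogen particle, where it turns glycogen synthase on and phosphorylase off. They had the largest CVs of the 10 genes, up to 39.5% for Ppp1r3b and 66.4% for Ppp1r3c. Ppp1r3b (ENSMUSG00000046794, chr8:35375739-35388139, plus strand) measured 455, 267, 498, 371 and 469 CPM in control and 256, 538, 363, 500 and 202 CPM in vehicle livers. Its lowest, median and highest values were 131, 305 and 460 CPM after T4, 162, 258 and 368 CPM after T3 and 267, 434 and 554 CPM after T3+T4. The groups overlapped and Ppp1r3b passed in no comparison. T3+T4 livers were 0.79 ± 0.26 (log2) above T3 livers (adjusted p = 0.213). The interaction of T3 and T4, which asks whether both hormones together differ from the sum of each alone, was 1.06 ± 0.37 (adjusted p = 0.277).

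Ppp1r3c (ENSMUSG00000067279, chr19:36731731-36736653, minus strand) measured 245, 234, 202, 211 and 223 CPM in control and 335, 467, 255, 388 and 192 CPM in vehicle livers. The control livers were close together, with a CV of 7.76%, whereas the vehicle livers spread over a CV of 33.0%. After T3 the 6 livers measured 28.4 CPM (animal 61), 40.6 CPM (animal 68) and then 181, 183, 199 and 297 CPM. Animal 61 had a deposited count of 170 in a library of 6101175 counts, a total within the range of the T3 libraries. After T3+T4 the lowest, median and highest values were 125, 149 and 262 CPM. The difference from vehicle was −1.08 ± 0.36 (log2) after T3 (adjusted p = 0.0623) and −0.88 ± 0.34 after T3+T4 (adjusted p = 0.0774), neither of which passed. The T3 difference passed on leaving out vehicle animal 67 or T3 animal 62 (adjusted p down to 0.0162). Without T3 animals 61 and 68 it was −0.61, while the T3+T4 difference then passed, as it also did with the compared groups alone and without the 4 animals whose labelled sex differed.

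Animals 61 and 68 also had the lowest Ppp1r3b of the T3 group, at 162 and 165 CPM. In the same 2 livers Gys2 was the highest of the T3 group (223 and 233 CPM), and G6pc (531 and 547 CPM) lay in the upper part of its range. They were thus not low in all 10 genes.

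Over the comparisons among Pax8KO groups, the number of the 10 genes that passed ran from 0 to 6. T4 against vehicle gave 0 of 10 by edgeR and 0 by DESeq2, where 0.41% and 1.38% of all genes passed. At an unadjusted p under 0.05 were 2 of the 10 and 12.7% of all genes, so their count was near that of all genes. T3 against vehicle gave 3 lower (Pcx, Gys2 and Ugp2) and none higher, against 6.77% of all genes. T3+T4 against vehicle gave 5 lower (Pck1, Fbp1, Pcx, Gys2 and Ugp2) and 1 higher (Gbe1), against 15.8% of all genes. T3+T4 against T4 gave 4 lower (Fbp1, Pcx, Gys2 and Ugp2) and 1 higher (Gbe1), against 8.61% of all genes. There the Gys2 and Ugp2 calls each held under 9 of 15 alternatives. With 1 library left out they held in 13 and 9 of 15 fits. The median log2 difference of the 10 genes was −0.16 after T4, −0.25 after T3 and −0.28 after T3+T4, with medians of 0 for all genes. These comparisons share the vehicle libraries, and the groups differ in size.

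**Figure D4:**
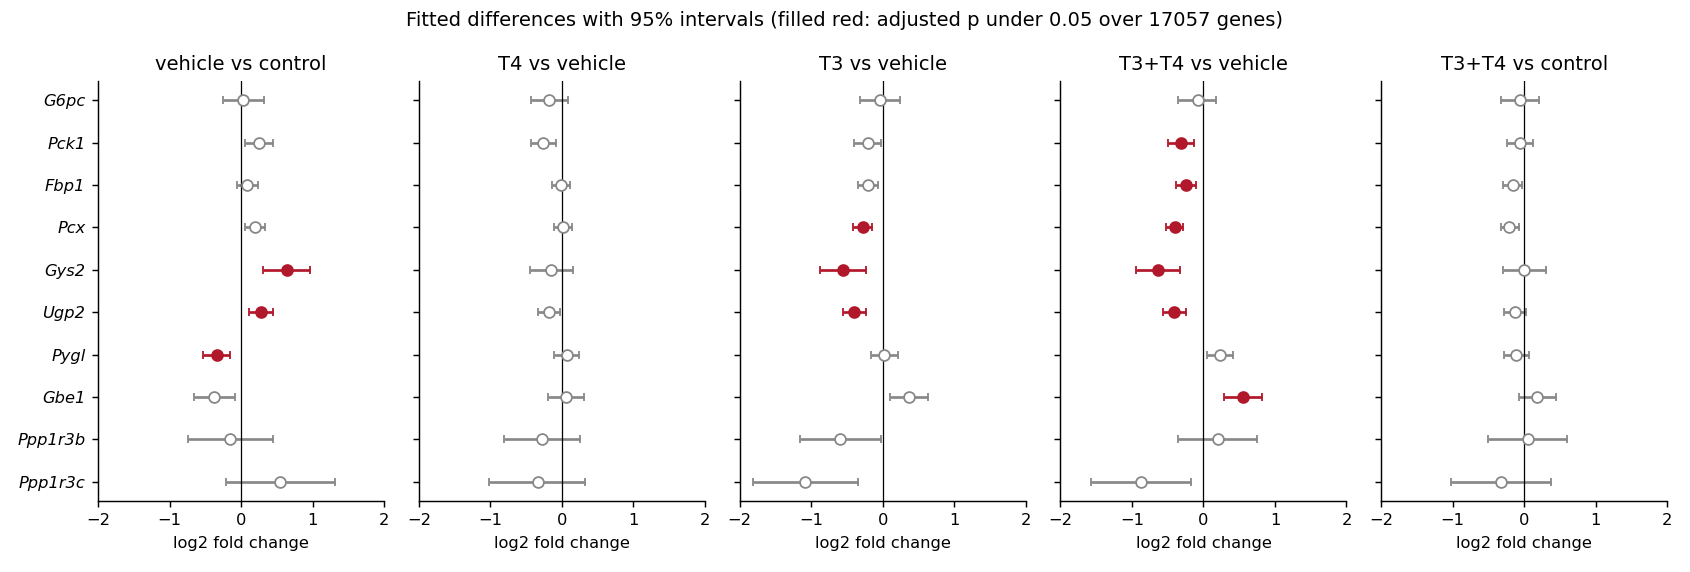
Log2 fold changes (horizontal axis) of the 10 genes with 95% intervals in 5 comparisons; filled red points passed the test at an adjusted p of 0.05 and open grey points did not. Gys2 is 0.64 above control in vehicle livers and its T3+T4 value against vehicle is −0.63, Gbe1 is 0.55 above vehicle after T3+T4, and no gene passes after T4 alone or between T3+T4 and control.

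Against the control livers, 0 of the 10 genes passed after T3+T4 by edgeR and 1 (Pcx) by DESeq2, where 0% of all genes passed by edgeR and 0.293% (50 genes) by DESeq2. At an unadjusted p under 0.05 were 2 of the 10 and 7.19% of all genes. After T3 it was 0 by edgeR and 1 (Pygl) by DESeq2, against 0.211% and 1.98% of all genes, with 2 of the 10 and 17.4% of all genes at an unadjusted p under 0.05. After T4 it was 0 by edgeR and 3 by DESeq2 (Pcx and Gys2 higher, Pygl lower), against 3.54% and 5.04% of all genes, with 4 of the 10 and 19.8% of all genes at an unadjusted p under 0.05. The edgeR differences of T4 from control were 0.21 ± 0.06 (log2) for Pcx (adjusted p = 0.051), 0.49 ± 0.15 for Gys2 (adjusted p = 0.0608) and −0.28 ± 0.09 for Pygl (adjusted p = 0.067). Between T3+T4 and T3, 0 of 10 passed by either tool, against 0.0117% of all genes by edgeR and 0.909% by DESeq2, with 2 of the 10 and 12.7% of all genes at an unadjusted p under 0.05. The interaction gave 0 of 10 by either tool, against 0.135% and 0.639% of all genes, with 1 of the 10 (Ppp1r3b) and 10.4% of all genes at an unadjusted p under 0.05.

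Markers of other tissues differed between the same groups. Of the 8 skeletal muscle markers 6 were tested, and 5 of those were higher in T3 than in vehicle livers, with Ckm at a mean of 14.6 CPM after T3 and 0.358 CPM in vehicle livers. Of the 8 acinar markers 6 were tested, and 5 were lower in T3 than in vehicle livers, with 2 vehicle libraries averaging 8.09 and 25.5 CPM. All 6 were higher in T3+T4 than in T4 livers, with 3 T3+T4 libraries averaging from 7.9 to 23.4 CPM, while no T4 library was above 1.51 CPM. Muscle also makes Gbe1, Ugp2 and Ppp1r3c. Every group lost libraries when the 12 with at least 5 CPM of either list were left out. The share of all genes that passed fell from 6.77% to 0.492% in T3 against vehicle and from 15.8% to 4.06% in T3+T4 against vehicle. It fell from 8.61% to 0.848% in T3+T4 against T4 and from 9.63% to 4.09% in vehicle against control. T3 against vehicle then kept none of its 3 calls. The differences of Pcx (−0.31), Gys2 (−0.63) and Ugp2 (−0.41) were no smaller than with all libraries. T3+T4 against vehicle kept Pck1, Fbp1, Pcx, Ugp2 and Gbe1, and lost Gys2 (adjusted p = 0.0539). T3+T4 against T4 kept Pcx alone of its 5 calls (−0.49), while Fbp1 (−0.32, adjusted p = 0.0611), Gys2 (−0.61, adjusted p = 0.159), Ugp2 (−0.27, adjusted p = 0.261) and Gbe1 (0.59, adjusted p = 0.0781) kept their direction. Vehicle against control kept Gys2 alone, at 0.82.

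Some hepatocyte markers were also lower in the comparisons in which members of the 10 fell. The mean of the 8 markers ran from 813 to 887 CPM in vehicle livers, 624 to 770 CPM after T3 and 563 to 772 CPM after T3+T4, with no overlap of vehicle with either. It ran from 722 to 810 CPM in control and from 664 to 826 CPM after T4. Apob weighs most in this mean of CPM, at 3020 CPM in vehicle livers, where Cps1 was next at 998 CPM. In T3+T4 against vehicle 4 of the 8 were lower and the other 4 did not pass, where 15.8% of all genes passed. Apob, the main protein of secreted lipoproteins, fell by 0.36 ± 0.07 (log2) and Alb (albumin) by 0.24 ± 0.08. Apoa1 fell by 0.23 ± 0.06 and Serpina1c by 0.22 ± 0.08 (adjusted p from 0.0013 to 0.0454 over the 4). After T3, 2 of the 8 passed, Apob (−0.34 ± 0.08) and Alb (−0.28 ± 0.08), against 6.77% of all genes. In T3+T4 against T4 it was Apoa1 alone (−0.23 ± 0.06), against 8.61% of all genes. In T3+T4 against vehicle, the falls of Pck1 (0.31) and Fbp1 (0.25) lay within the range of the called markers. Those of Pcx (0.40), Ugp2 (0.41) and Gys2 (0.63) were larger. After T3, the fall of Pcx (0.28) was of the size of that of Alb, and those of Ugp2 (0.40) and Gys2 (0.55) were larger than both markers. In T3+T4 against T4, Fbp1 (0.24) and Ugp2 (0.23) were near Apoa1, and Pcx (0.41) and Gys2 (0.48) fell more. The 8 markers have median counts of 0.787 to 1.38 per exonic base, toward the upper limit assumed for the counts. Their part in the falls of the 10 genes was not tested.

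Across livers, some of the genes moved together. Correlations of log2 CPM were computed for all 45 pairs over 31 libraries, with permutation p-values adjusted over the 45, and again on deviations from group means with permutation within groups. Within groups, 10 of the 45 pairs had an adjusted permutation p under 0.05, and Pygl was in several of them. Those not taken up below were Fbp1 with Pygl (r = 0.64) and with Ugp2 (0.51), and Ppp1r3b with Ppp1r3c (0.54). Pygl with Ugp2 (0.53) and with Ppp1r3c (0.48) were the others, with adjusted permutation p from 0.0054 to 0.029 over these. G6pc and Pck1 were the closest pair within groups, with r = 0.86 (adjusted permutation p = 0.00045). Over all libraries r was 0.76 (adjusted permutation p = 0.00015) and Spearman's rho 0.78 (adjusted permutation p = 0.00011), and r was 0.71 without the 2 livers farthest from the median of G6pc. Pygl and Ppp1r3b followed, with r = 0.70 within groups (adjusted permutation p = 0.0009), r = 0.72 and rho 0.75 over all libraries (adjusted permutation p of 0.00015 and 0.00011), and r = 0.70 without the 2 farthest.

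Gys2 ran opposite to Pygl and Ppp1r3b and in the direction of Ugp2. With Pygl its r was −0.56 within groups (adjusted permutation p = 0.0089), with r and rho of −0.62 over all libraries (adjusted permutation p of 0.0011 and 0.0014) and −0.55 without the 2 farthest. With Ppp1r3b its r was −0.64 within groups (adjusted permutation p = 0.0089), −0.48 over all libraries with rho −0.39 (adjusted permutation p of 0.018 and 0.068), and −0.29 without the 2 livers farthest from the median of Gys2, so the pooled relation rests in part on those livers. Within groups it was −0.50 without them. With Ugp2 the r of Gys2 was 0.57 and rho 0.59 over all libraries (adjusted permutation p of 0.0036 and 0.0023), and 0.15 within groups (adjusted permutation p = 0.56). With Gbe1 it was −0.58 over all libraries (adjusted permutation p = 0.003) and −0.20 within groups (adjusted permutation p = 0.44). With Ppp1r3c it was 0.11 over all libraries (adjusted permutation p = 0.63) and −0.38 within groups (adjusted permutation p = 0.076). Livers with more glycogen synthase transcript thus had less phosphorylase and less Ppp1r3b transcript, also among animals given the same treatment. Pcx and Gbe1 were opposed over all libraries (r = −0.78, rho −0.79, adjusted permutation p of 0.00015 and 0.00011, r = −0.74 without the 2 farthest), and within groups r was smaller (−0.49, adjusted permutation p = 0.041). Values of a library share its depth and scaling, and the time of day at which each animal was taken is not given in the labels.

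**Figure D5:**
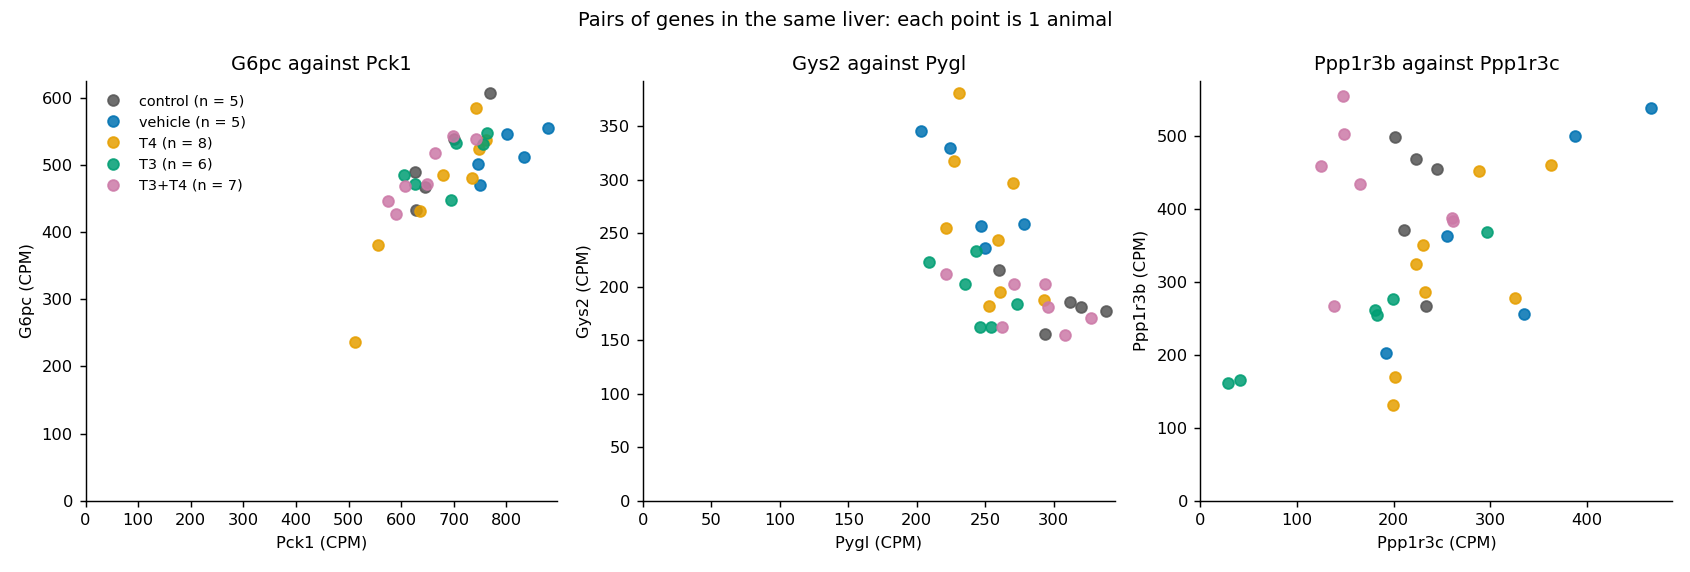
CPM of G6pc against Pck1, Gys2 against Pygl and Ppp1r3b against Ppp1r3c, with 1 point per animal coloured by group and both axes from 0. G6pc and Pck1 rise together (r = 0.76 over 31 livers), Gys2 and Pygl run opposite (r = −0.62), and 2 T3 livers stand alone at 28.4 and 40.6 CPM of Ppp1r3c.

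The genes whose levels over the 31 libraries were most like each of the 10 were found by Pearson's r of log2 CPM over all genes tested, and are given as a description. Pck1 was most like Klf15 (r = 0.78), a transcription factor of fasting metabolism, then G6pc and Ghitm, and G6pc was most like Pck1, Irf2bp2 and Pnrc1 (0.76 to 0.68). Pcx was most like Hadhb (0.90) and Hadha (0.89), the subunits of the mitochondrial trifunctional protein of fatty acid oxidation, and Ldha-ps2 (0.88). Fbp1 was most like Cfi (0.93), Acaa2 and Apoa2 (both 0.92). Gys2 was most like Rbms1 (0.91), Nfx1 and Ppfibp1 (both 0.89), and Ugp2 most like Slc25a13, Hsd11b1 (both 0.89) and Slc2a5 (0.87). Pygl was most like Mfsd1 (0.88), Fmo1 and Nit2 (both 0.87), and Gbe1 most like Gramd1c (0.86), Hopx and Klf13 (both 0.83). Ppp1r3b was most like Kcnk5, Spata2l and Sucnr1 (each 0.89), and Ppp1r3c most like Stom (0.93), Dsp (0.91) and Abca8a (0.90).

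Other genes of the same pathways were counted from lists of 36 gluconeogenesis genes (34 tested), 27 glycogen genes (25 tested) and 31 regulators (all tested). In vehicle against control livers, 4 gluconeogenesis genes were higher and 1 lower, 2 glycogen genes were higher, and 2 regulators were higher and 1 lower. That is 5 of 34, 2 of 25 and 3 of 31 where 9.63% of all genes passed, so the glycogen and regulator counts were near the share of all genes. Thra, a thyroid hormone receptor gene, rose by 0.37 ± 0.07 on the log2 scale (53.4 to 69.3 CPM, adjusted p = 0.00123). Pgm2, a phosphoglucomutase that links glucose-6-phosphate to glycogen, rose by 0.27 ± 0.07 (adjusted p = 0.0164). Aldoa, an aldolase, rose by 0.48 ± 0.13 (adjusted p = 0.0197) and Pck2, the mitochondrial phosphoenolpyruvate carboxykinase, by 0.46 ± 0.13 (adjusted p = 0.0241).

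After T4, 0 of the 34 gluconeogenesis genes, 25 glycogen genes and 31 regulators passed against vehicle by edgeR or by DESeq2, with 1, 2 and 6 of them and 12.7% of all genes at an unadjusted p under 0.05. After T3, 3 gluconeogenesis genes, 2 glycogen genes and 1 regulator were lower and 1 regulator was higher, counts near the 6.77% of all genes that passed. Thra fell by 0.37 ± 0.07 (adjusted p = 0.00149), Pgm2 by 0.36 ± 0.07 (adjusted p = 0.0025), Gckr, the regulatory protein of glucokinase, by 0.43 ± 0.09 (adjusted p = 0.00295) and Ldha, a lactate dehydrogenase subunit, by 0.25 ± 0.06 (adjusted p = 0.00828). After T3+T4, 8 gluconeogenesis genes, 2 glycogen genes and 2 regulators were lower and 1 gluconeogenesis gene was higher, where 15.8% of all genes passed. The glycogen and regulator counts were below that share. The same 4 genes led there: Ldha fell by 0.31 ± 0.05 (adjusted p = 0.000269), Pgm2 by 0.36 ± 0.07 (adjusted p = 0.000484), Thra by 0.34 ± 0.07 (adjusted p = 0.000813) and Gckr by 0.39 ± 0.08 (adjusted p = 0.00195). Pgm2 therefore moved in the direction of Gys2 and Ugp2 in each of these comparisons, with group means of 199 CPM in control, 241 in vehicle, 219 after T4, 188 after T3 and 187 after T3+T4.

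Between T3+T4 and T4, 6 gluconeogenesis genes and 2 glycogen genes were lower and 1 regulator was higher, where 8.61% of all genes passed, so the glycogen count was near that share and the regulator count below it. Ldha fell by 0.25 ± 0.05 (adjusted p = 0.00174), Aldoa by 0.42 ± 0.11 (adjusted p = 0.0145) and Gpi1, glucose-6-phosphate isomerase, by 0.29 ± 0.07 (adjusted p = 0.0147). Nr3c1, the glucocorticoid receptor, rose by 0.29 ± 0.07 (adjusted p = 0.00958). Against control, T4 livers had 1 gluconeogenesis gene and 1 glycogen gene higher and 1 regulator lower, where 3.54% of all genes passed. Gpi1 rose by 0.37 ± 0.08 (adjusted p = 0.0146) and Gaa, the lysosomal glycogen-degrading enzyme, by 0.26 ± 0.08 (adjusted p = 0.0489), and Nr3c1 fell by 0.36 ± 0.08 (adjusted p = 0.00774). In T4 against T3, T3+T4 against T3, T3 and T3+T4 against control, and the interaction, 0 genes of these lists passed by edgeR. In these comparisons DESeq2 called between 0 and 2 genes of a list and from 0.293% to 1.98% of all genes. Between 0 and 9 genes of a list, and from 7.19% to 17.4% of all genes, had an unadjusted p under 0.05.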

How the data were processed

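RNA of 31 livers was sequenced after library preparation with a stranded mRNA kit, per the labels' protocols. The deposited values are counts per gene, all whole numbers. The smallest value in each of the 31 columns is 1 and 50.1% of values equal it, so 1 appears to have been added throughout. The submitters' processing notes name bcl2fastq, Trimmomatic, BWA 0.7.10 and DESeq together with GRCh38, which is a human build. The column names give mm10. How reads were counted, whether strand was used and whether duplicates were removed is not given in the sources used here. GENCODE M21 (GRCm38, the same build as mm10) holds 97.3% of the gene IDs and supplied positions and exonic lengths.

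Groups follow the labels. After scaling by the trimmed mean of M-values, filterByExpr left 17057 genes. The quasi-likelihood functions of edgeR 4.0.16 under R 4.3.3 were applied to a model with a mean for each group, in 11 comparisons, with Benjamini-Hochberg adjustment and a threshold of 0.05. The script was first tested on simulated data. Levels are CPM, and log2 CPM for correlations used a prior count of 2. Permutation p-values of correlations used 100000 permutations. No 2 libraries of a group agreed within sampling noise (chi-square per degree of freedom of at least 2.76). No replicate numbers are shared between groups.

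The 10 genes, the gene lists and the alternatives were chosen with earlier results of these data known. The text names the 10 genes, up to 4 genes of the pathway lists with the smallest adjusted p in each comparison, and the 3 genes most like each of the 10 by Pearson's r, without Gm-numbered, Rik and symbol-less features.

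Alternatives changed the scaling (median of ratios, or the library total alone), the filter (none, or a mean of at least 5 CPM), the libraries fitted (the compared groups, animals 54 to 85, or all but 1) or the tool (DESeq2 1.42.0). Others subtracted the added 1, corrected for a ceiling of 2 counts per exonic base, added a covariate for sex or for log2 library total, or left out the 12 libraries with muscle or acinar markers of at least 5 CPM. Chosen after seeing the data were removal of the 4 animals with a differing sex label, of T3 animals 61 and 68, and of T4 animals 70 and 71. All T3 and T3+T4 animals are numbered from 54 to 85, as are only some control, vehicle and T4 animals. Differences between groups therefore cannot be fully told apart from animal number.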

Additional observations from a re-analysis of the deposited data

How the results depend on the processing

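None of the 18 differences that passed in the 11 comparisons changed direction under any alternative, 12 of them also passed with each library left out in turn, and 3 (Pcx and Ugp2 in T3+T4 against vehicle, Pcx in T3+T4 against T4) passed under every alternative. Of the 92 differences that did not pass, 9 passed under at least 1 alternative and 34 changed sign under at least 1, of which 6 were at least 0.1 on the log2 scale. The cause was not tested, and the fits to fewer libraries rest on fewer animals. Without the 4 animals with a differing sex label, 2, 2, 7, 1 and 5 of the 10 genes passed in vehicle against control, T3 and T3+T4 against vehicle, T4 against T3 and T3+T4 against T4, in place of 3, 3, 6, 1 and 5. Of all genes, 6.43%, 4.46%, 12.3%, 0.222% and 8.12% then passed, in place of 9.63%, 6.77%, 15.8%, 0.551% and 8.61%.

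The share of all genes that passed also changed with the setting. In vehicle against control it was 9.63%, and 4.09% without the libraries holding muscle or acinar markers. In T3 against vehicle it was 6.77%, and 1.7% with the compared groups only and 0.492% without the marker libraries. In T3+T4 against T4 it was 8.61%, and 4.9% without the filter, 4.5% with the library total covariate and 0.848% without the marker libraries. The number of the 10 genes that passed changed by more than 1.5 times as follows. In vehicle against control it was 3, and 0 with animals 54 to 85 only, 1 without the libraries holding muscle or acinar markers, and from 1 to 3 with a library left out. In T3 against vehicle it was 3, and 0 with the compared groups only or without the marker libraries, 1 with animals 54 to 85 only, and from 2 to 6 with a library left out, the 6 being without T3 animal 62. In T3+T4 against vehicle it was 6, and 3 with animals 54 to 85 only. In T4 against T3 it was 1, and 0 without the filter, with the compared groups only, with animals 54 to 85 only, with the covariate for library total or for sex, without the marker libraries or without T3 animals 61 and 68, and from 1 to 2 with a library left out. In T3+T4 against T4 it was 5, and 2 without the filter, with animals 54 to 85 only or with the library total covariate, 1 without the marker libraries, 3 without T4 animals 70 and 71, and from 3 to 5 with a library left out. In T4 against control it was 0, and 2 with library total alone or as a covariate, 3 with DESeq2, 1 with a mean of at least 5 CPM, the added 1 subtracted, the ceiling correction, the sex covariate or without the animals with a differing sex label, and from 0 to 3 with a library left out. In T3 against control it was 0, and 1 with DESeq2 and from 0 to 1 with a library left out. In T3+T4 against control it was 0, and 1 with DESeq2. Under the ceiling correction Pck1 after T3+T4 was −0.34 and did not pass, and G6pc was 0.04 against −0.08.

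Over all genes, the number that passed in T3+T4 against vehicle was 2692, with 685 without the marker libraries as the lowest of the alternatives. In vehicle against control it was 1642, with 3 for animals 54 to 85 only. With a covariate for sex, 618 genes passed in T3 against vehicle in place of 1155, and 7 in T4 against T3 in place of 94. No paired analysis was possible because the groups share no animal numbers.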
